A study of Mus musculus with 6 samples.

Results

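The B7 family genes Cd80, Cd86, Cd274, Pdcd1lg2, Icosl and Cd276 were examined in RNA sequencing of peritoneal macrophages (PEMs) with and without Tim-4. The genes were chosen by name, and all 6 were found among the 15415 genes listed in the deposited table. Expression was given as FPKM, reads divided by the length of each gene and by the depth of its library, so levels of different genes can be set side by side. PEMs are macrophages washed from the abdominal cavity, here of male C57BL/6J mice 6 to 8 weeks old, 3 days after an injection of 1 ml of 6% starch. The 3 knockout libraries had the genotype LysM-Cre; Tim-4 fl/fl. Their Cre is made under the control of Lyz2, the lysozyme gene of myeloid cells, and removes the floxed part of Tim-4 there. The 3 control libraries were from littermates of genotype Tim-4 fl/fl, which carry the same floxed alleles but no Cre. For treatment, each of the 6 libraries carries the entry lps, and activation of PEMs in the methods used 1 µg/ml LPS for 3.5 hours, without a statement that the sequenced cells were treated in this way. Libraries were grouped by their titles, since the entries for genotype are swapped relative to the titles, and the level of Timd4 given below bears on this. The labels do not say whether the libraries came from separate mice, and the study mentions biological replicates only where it explains the error bars of its plots, so the p-values measure the spread between these libraries, which may be technical.

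B7 proteins sit on the surface of antigen-presenting cells and bind receptors on T cells. CD80 and CD86 bind CD28, which costimulates the T cell, and CTLA-4, which inhibits it. PD-L1 (encoded by Cd274) and PD-L2 (Pdcd1lg2) bind the inhibitory receptor PD-1, ICOSL (Icosl) binds the costimulatory receptor ICOS, and B7-H3 (Cd276) is a checkpoint molecule found on many tissues and tumours. In macrophages, interferons and bacterial products are known inducers of Cd274 and Cd86, and interleukin 4 is a known inducer of Pdcd1lg2. The comparison addresses how loss of macrophage Tim-4 went along with the expression of these genes.

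The libraries held between 36170767 and 42217558 reads on the listed genes. Timd4, the gene of Tim-4, was at 0.333, 0.394 and 0.246 FPKM in knockout replicates 1 to 3 and at 19.5, 12.0 and 1.19 in the control libraries, with a log2 fold change of -2.66 (limma adjusted p = 0.0715, 0.0436 with the replicate number as a block), so control replicate 3 lay near the knockout libraries. Lyz2 was at 41.4, 4656 and 106 FPKM in knockout replicates 1 to 3 and between 7090 and 8482 in the control libraries. Of 8 macrophage markers, Adgre1, Csf1r, Itgam and Cd68 were at 83.3 FPKM or above in every library, and Mertk was between 0.821 and 12.1 FPKM. Fcgr1, a receptor for antibody, was the 1 that passed the test, where 2.57% of all tested genes rose. It rose from 5.83 ± 0.713 to 47.9 ± 10.9 FPKM (SD, n = 3 each, log2 fold change 2.82, limma adjusted p = 0.00150). Of the 8 markers 5 had a log2 fold change below 0, as did 63.5% of all tested genes. Every knockout library lay below every control library for 3 (Csf1r, Cd14 and Lyz2) and above for 2 (Fcgr1 and Cd68). The shares of listed genes were 21.3% and 9.63%. The 10 dendritic cell markers summed to between 52.7 and 55.3 FPKM in the knockout libraries and between 37.7 and 55.4 in the control libraries. Most of this came from Itgax, Fscn1 and Ccr7, the 3 tested markers, none of which passed, while the lineage genes Flt3, Zbtb46, Xcr1 and Clec9a were at 0.373 FPKM or below. Markers of other cells also differed between the groups. Of the tested markers, 7 of 8 for B cells and 5 of 5 for mast cells (4 with the block) fell in the knockout, as did 4 of 7 for large peritoneal macrophages (5 with the block, which also called 1, Cd93, higher), 1 of 2 for T cells and 2 of 5 for neutrophils. With the block Camp lost its neutrophil call (limma adjusted p = 0.0529) and Retnlg gained one (0.0437). Over all tested genes 4.74% fell. The counts are a description only, because 6 of the 7 B cell markers that fell, all 5 for mast cells, 3 of the 4 for large peritoneal macrophages, the 1 for T cells and 1 of the 2 for neutrophils had a knockout mean under the filter of 1 FPKM and entered the test only through the control group, as Timd4 did. Each of these calls for B cells, T cells, large peritoneal macrophages and neutrophils was lost without knockout replicate 1 and also without control replicate 2, whereas 4 of the 5 for mast cells were kept without any 1 library. Their part in the results below was not tested. Because whole populations were sequenced, fewer cells of a type and less RNA per cell cannot be told apart.

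The ligands of PD-1 are encoded by neighbouring genes, which lay near the opposite ends of the expression range of the family and differed between the groups in opposite directions. Their promoters are shown for that reason, from 250 bases before to 50 bases after the start of the gene in RefSeq on GRCm38.p6, both on the plus strand of chromosome 19 at chr19:29367188-29367487 (Cd274) and chr19:29410669-29410968 (Pdcd1lg2). Capitals mark GAAAC, the core that interferon regulatory factors bind, on either strand.
Cd274: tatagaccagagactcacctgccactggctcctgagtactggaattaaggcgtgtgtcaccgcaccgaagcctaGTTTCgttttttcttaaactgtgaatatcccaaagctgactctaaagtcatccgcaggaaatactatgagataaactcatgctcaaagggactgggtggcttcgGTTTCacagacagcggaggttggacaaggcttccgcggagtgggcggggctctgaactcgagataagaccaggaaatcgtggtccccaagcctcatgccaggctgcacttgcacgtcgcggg
Pdcd1lg2: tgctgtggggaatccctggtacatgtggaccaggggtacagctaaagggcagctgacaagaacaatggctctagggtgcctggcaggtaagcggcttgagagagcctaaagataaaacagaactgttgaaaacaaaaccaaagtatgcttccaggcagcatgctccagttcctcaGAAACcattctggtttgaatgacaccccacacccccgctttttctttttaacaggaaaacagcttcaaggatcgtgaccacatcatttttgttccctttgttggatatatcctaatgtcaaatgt
In the Cd274 promoter GAAAC was found 176 and 72 bases before the start, and in the Pdcd1lg2 promoter 75 bases before it. This motif was present in 45.0% of the 32851 mouse promoters of the same length. Of the 5 members with a promoter in the table, 3 held GAAAC (Cd80 as well), and 1, Cd80, held the AP-1 motif TGANTCA, which 7.81% of all promoters held. None of the 5 held the STAT motif TTCNNNGAA (8.30% of all promoters), the interferon-stimulated response element GAAANNGAAA (3.44%), which can overlap GAAAC, or the kappaB motif GGGANNTTCC (1.47%). A match here is a run of letters and not a measured site.

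**Figure D1:**
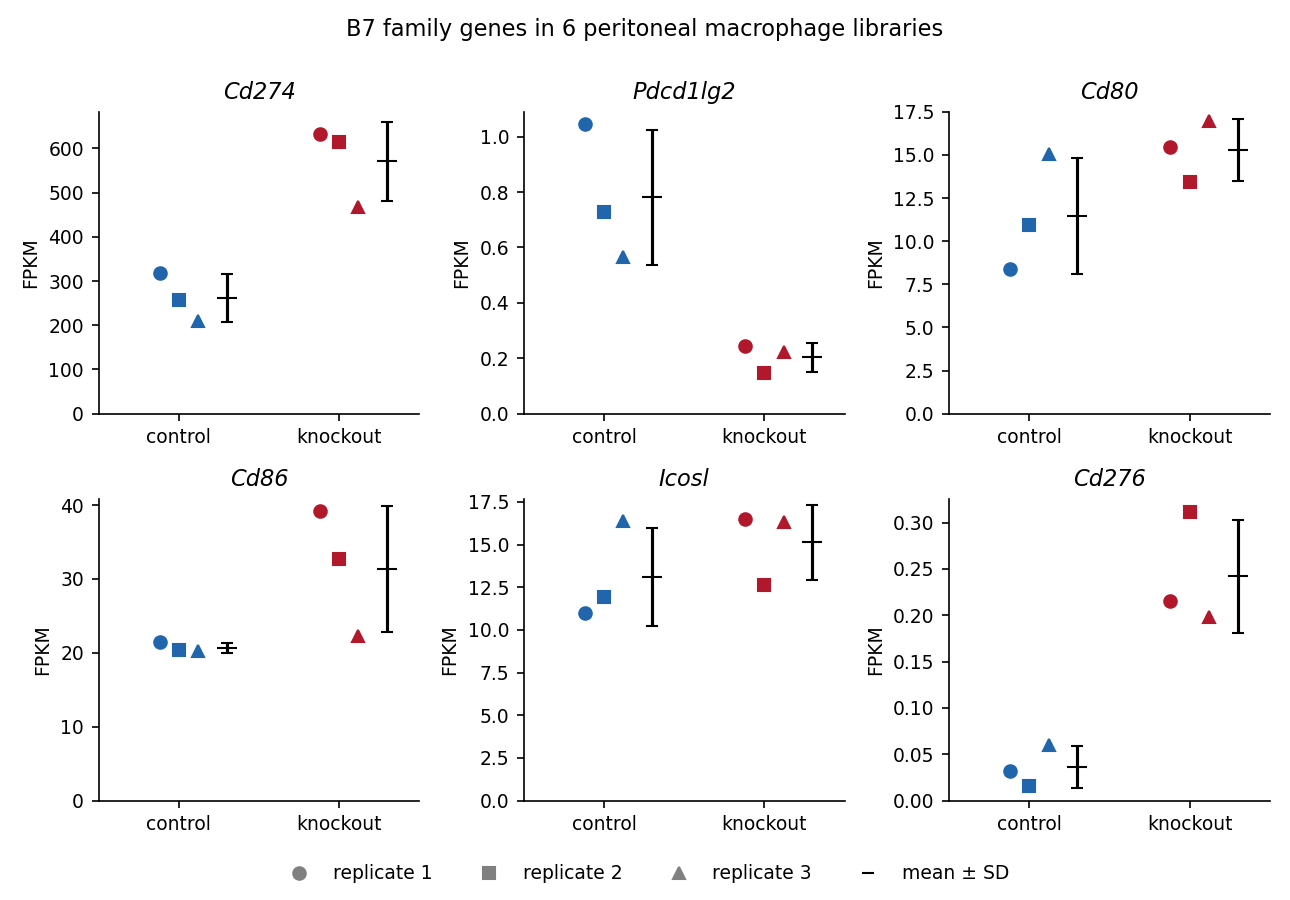
FPKM of each member in the 3 control (blue) and 3 knockout (red) libraries, on linear axes from 0, with symbols for the replicates and the mean ± SD beside them. Cd274, Cd86 and Cd276 show every knockout library above every control library, Pdcd1lg2 shows the reverse, and Cd80 and Icosl overlap.

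Cd274 was the most abundant member in every library and rose in the knockout. It was at 631, 614 and 468 FPKM in knockout replicates 1 to 3 and at 319, 257 and 209 in the control libraries, so that the lowest knockout library stood above the highest control library. The means were 571 ± 89.8 and 262 ± 54.9 FPKM (SD, n = 3 each), a ratio of 2.18. These values rested on 78345 to 108614 reads in the knockout libraries and on 30963 to 51476 in the control libraries. By limma on log2(FPKM + 1) over the 9030 genes that averaged 1 FPKM or more in either group, adjusted by Benjamini-Hochberg, the log2 fold change was 1.13 with an SE of 0.20 (95% interval 0.67 to 1.60, adjusted p = 0.0220). Among the listed genes Cd274 ranked 82, 83 and 135 by FPKM in the knockout libraries and 209, 253 and 323 in the control libraries.

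The difference in Cd274 kept its direction under every setting tried, but its call depended on single libraries. The adjusted p was 0.105 without knockout replicate 1, 0.107 without knockout replicate 2 and 0.106 without control replicate 2, with log2 fold changes of 1.05, 1.07 and 1.13, while it was 0.0179 without control replicate 3. Knockout replicate 2, in which Lyz2 was still high, had 614 FPKM of Cd274, close to the 631 FPKM of knockout replicate 1. The median log2 fold change of all tested genes was -0.11, and scaling by the median of ratios moved it to 0.01 and that of Cd274 to 1.28. The gene Plgrkt, which overlaps Cd274 in the annotation, had a log2 fold change of 0.08 (limma adjusted p = 0.776) at a mean of 23.9 FPKM. Whether the counting used strand is not given, so reads from the overlap cannot be assigned to one of these genes.

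**Figure D2:**
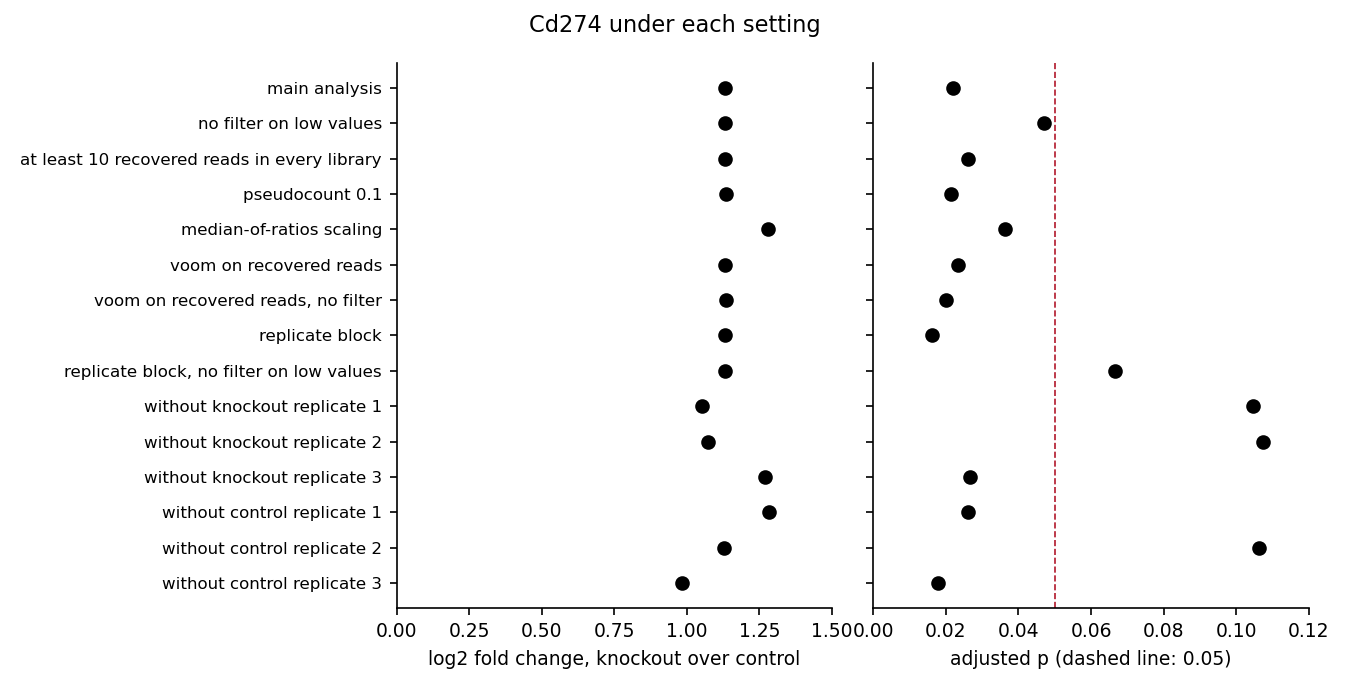
Log2 fold change of Cd274 between knockout and control (left) and its adjusted p (right) under the main analysis and each alternative setting. The fold change stays between 0.98 and 1.28 throughout, and 4 settings lie to the right of the dashed line at an adjusted p of 0.05.

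Pdcd1lg2, which encodes the second ligand of PD-1, was expressed at a very low level and was lower in the knockout. It was at 0.244, 0.146 and 0.222 FPKM in knockout replicates 1 to 3 and at 1.05, 0.729 and 0.567 in the control libraries, from 35, 21 and 31 reads against 141, 97 and 70. The highest knockout value was below the lowest control value. The means were 0.204 ± 0.0515 and 0.781 ± 0.244 FPKM (SD, n = 3 each), so the control mean was 3.83 times the knockout mean. Summed over the libraries and divided by their depth, the reads gave a control level 3.87 times that of the knockout, with an exact 95% interval of 3.04 to 4.97 that covers counting error only.

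The mean of Pdcd1lg2 was under 1 FPKM in both groups, so it was not among the 9030 genes tested. In a limma fit over all 15415 listed genes its difference on the log2(FPKM + 1) scale was -0.56 with an adjusted p of 0.0505. When only genes with 10 or more reads in each library were kept, the adjusted p by limma was 0.0299. In a separate fit with voom, which weights recovered reads by their precision in limma, over all listed genes without a filter, the log2 fold change was -1.92 with an SE of 0.39 and an adjusted p of 0.0299. Over these alternatives and the replicate block the adjusted p ranged from 0.0299 to 0.0760. In the voom fit it was lost without any 1 of the knockout libraries or without control replicate 2, reaching 0.157.

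B cell markers were lower in the knockout, as Pdcd1lg2 was, and so were some markers of other cells. The summed level of 9 B cell genes was 140, 97.5 and 38.8 FPKM in control replicates 1, 2 and 3, in the same order as Pdcd1lg2, and between 11.6 and 12.8 in the knockout libraries. Of these genes Cd79a was at 57.6, 33.7 and 15.3 FPKM in the control libraries and at 1.54 to 2.83 in the knockout libraries. Cr2 was at 0 in every knockout library, and Cd22, at 7.21 and 7.30 FPKM in knockout and control, made up most of what was left. Irf4, a transcription factor of B cells and of macrophages exposed to interleukin 4, fell from 4.97 ± 1.94 to 1.0 ± 0.538 FPKM (SD, n = 3 each), a log2 fold change of -1.55 (limma adjusted p = 0.0263). Of 6 tested small peritoneal macrophage markers, Irf4 was the 1 that fell and Mrc1 the 1 that rose. Mrc1 went from 44.4 ± 2.23 to 66.5 ± 2.98 FPKM (log2 fold change 0.57, limma adjusted p = 0.0326). The T cell marker sum over 9 genes was at 11.8, 7.60 and 3.12 FPKM in the control libraries and at 2.14 or below in the knockout libraries, but it rested mostly on Cd2, and the groups overlapped without it. The sum over 8 large peritoneal macrophage markers was at 168, 118 and 65.1 FPKM in the control libraries and at 54.4 or below in the knockout libraries. It rested on Prg4 and Timd4, and without them it was higher in the knockout, at 36.7 to 50.01 FPKM against 33.9 to 35.4, mainly through Cd93, at 40.8 ± 5.57 and 22.96 ± 5.51 FPKM (SD, n = 3 each, limma adjusted p = 0.0521, 0.0340 with the replicate block). The mast cell marker sum was at 38.5, 39.4 and 49.8 FPKM in the control libraries and at 2.33 or below in the knockout libraries. The part of these cells in the lower level of Pdcd1lg2 was not tested.

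The ratio of the PD-1 ligands followed from these levels. In log2 units, FPKM of Cd274 over that of Pdcd1lg2 was 11.3, 12.0 and 11.0 in the knockout libraries and 8.25, 8.46 and 8.53 in the control libraries. The groups did not overlap, with means of 11.5 ± 0.51 and 8.41 ± 0.14 (SD, n = 3 each) and a difference of 3.06. A two-sided exact permutation test without pairs gave p = 0.1, the smallest p that 3 against 3 libraries allow. With the replicate numbers taken as pairs, an exact sign-flip test gave p = 0.25, the smallest that 3 pairs allow. With 1 FPKM added to both genes the difference was 1.69. A ratio within a library does not depend on how libraries are scaled.

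**Figure D3:**
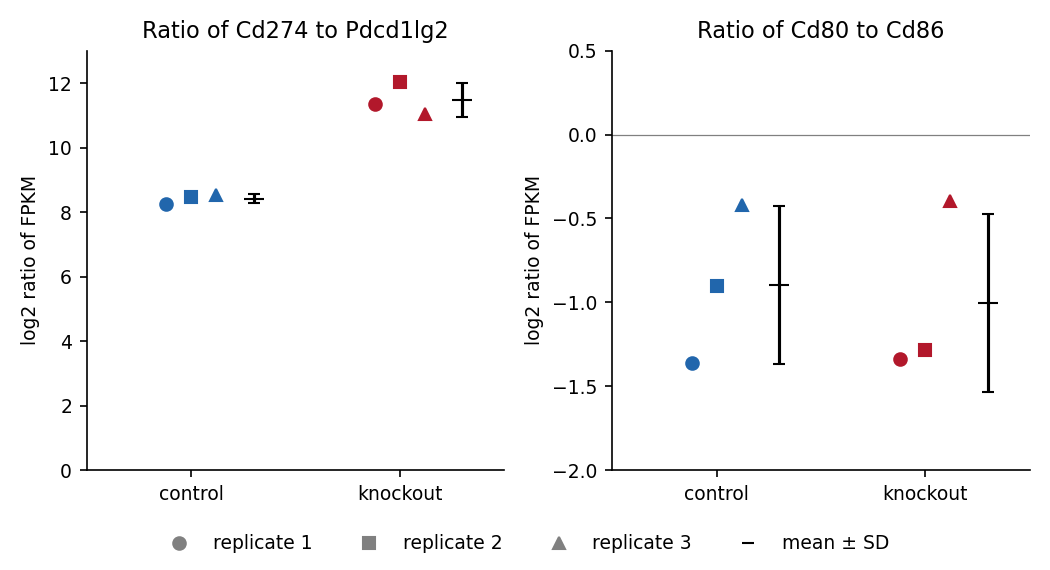
Log2 ratio of FPKM within each library for Cd274 to Pdcd1lg2 (left) and Cd80 to Cd86 (right), with symbols for the replicates and the mean ± SD beside them. The knockout libraries lie above 11 on the left and the control libraries near 8.4, whereas on the right the groups cover the same range.

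The ligands of CD28 and CTLA-4 were present at lower levels than Cd274, and neither passed the test. Cd86 was at 39.2, 32.7 and 22.3 FPKM in knockout replicates 1 to 3 and at 21.5, 20.5 and 20.2 in the control libraries. All knockout libraries lay above the control libraries, but knockout replicate 3 did so by a narrow margin. The means were 31.4 ± 8.52 and 20.7 ± 0.689 FPKM (SD, n = 3 each), with a ratio of 1.52. The log2 fold change was 0.54 with an SE of 0.20, a 95% interval of 0.06 to 1.02 and a limma adjusted p of 0.142. Without knockout replicate 3 it was 0.76 and passed the threshold (adjusted p = 0.0424), and over the libraries left out in turn the adjusted p ranged up to 0.398.

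Cd80 was at 15.5, 13.4 and 17.0 FPKM in knockout replicates 1 to 3 and at 8.36, 10.9 and 15.1 in the control libraries. The groups overlapped, because control replicate 3 was above knockout replicate 2. The means were 15.3 ± 1.78 and 11.5 ± 3.39 FPKM (SD, n = 3 each), and the log2 fold change was 0.42 with an SE of 0.21, a 95% interval of -0.08 to 0.91 and a limma adjusted p of 0.245. Their highest values fell in different libraries. Cd86 was highest in knockout replicate 1 and Cd80 in knockout replicate 3, and among the control libraries Cd80 was highest in replicate 3, where Cd86 was lowest.

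Accordingly, the log2 ratio of Cd80 to Cd86 was -1.34, -1.28 and -0.39 in the knockout libraries and -1.36, -0.90 and -0.42 in the control libraries. The difference of the means was -0.11, smaller than the SDs of 0.53 and 0.47 within the groups, and the two-sided exact permutation test gave p = 1.0. Leaving out 1 library moved it to between -0.42 and 0.13.

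Icosl, the ligand of ICOS, was at 16.5, 12.6 and 16.3 FPKM in knockout replicates 1 to 3 and at 11.0, 11.9 and 16.4 in the control libraries. Control replicate 3 had a level within the range of the knockout libraries, and the groups overlapped. The means were 15.1 ± 2.20 and 13.1 ± 2.86 FPKM (SD, n = 3 each), and the log2 fold change was 0.21 with an SE of 0.18, a 95% interval of -0.23 to 0.64 and a limma adjusted p of 0.499. The interval still holds a rise of about the size seen for Cd86. Dnmt3l, the gene before Icosl in the annotation, fell by 1.78 on the log2 scale (limma adjusted p = 0.0250), with a knockout mean under 1 FPKM.

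Cd276 was the least abundant member in all libraries except knockout replicate 2 and was higher in the knockout. It was at 0.216, 0.311 and 0.199 FPKM in knockout replicates 1 to 3 and at 0.0317, 0.0161 and 0.0605 in the control libraries, from 29, 42 and 26 reads against 4, 2 and 7. The groups did not overlap. The means were 0.242 ± 0.0606 and 0.0361 ± 0.0226 FPKM (SD, n = 3 each). Reads summed over the libraries, 97 against 13, gave a knockout level 6.83 times that of the control once divided by depth, with an exact 95% interval of 3.81 to 13.3 for counting error.

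Like Pdcd1lg2, Cd276 was under the filter of 1 FPKM. In the limma fit over all listed genes its difference on the log2(FPKM + 1) scale was 0.26 (adjusted p = 0.0367), and in the voom fit its log2 fold change was 2.76 with an SE of 0.58 (adjusted p = 0.0335). With the replicate number as a block and all listed genes, the limma adjusted p was 0.0817. When libraries were left out in turn, both fits passed the threshold only without control replicate 3, with the adjusted p reaching 0.139 and 0.143 otherwise.

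Mesothelial cell and fibroblast markers followed Cd276 in some libraries and not in others. Summed over 10 genes, these markers were at 12.9, 36.6 and 16.1 FPKM in knockout replicates 1, 2 and 3 and at 2.16, 6.36 and 13.3 in control replicates 1, 2 and 3, so the groups overlapped. Knockout replicate 2 was highest in both Cd276 and the marker sum, and control replicate 3 was the highest control in both. The order of the other libraries differed, since Cd276 was higher in knockout replicate 1 than in 3 and in control replicate 1 than in 2, and the marker sum was lower. For Cd276 this order rested on 29 against 26 reads and on 4 against 2, too few to be read either way. Col1a1, the collagen gene of fibroblasts, was at 2.52 ± 1.70 FPKM in the knockout and 0.487 ± 0.483 in the control (SD, n = 3 each, log2 fold change 1.17, limma adjusted p = 0.109, 0.0442 with the replicate block). Of the 5 tested markers none passed the limma threshold, and with the block 3 did (Col1a1, Col1a2 at 0.0277 and Pdgfra at 0.0476). These 3 had control means under 1 FPKM and entered the test only through the knockout group, so their calls are no support. Their part in the higher level of Cd276 was not tested.

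**Figure D4:**
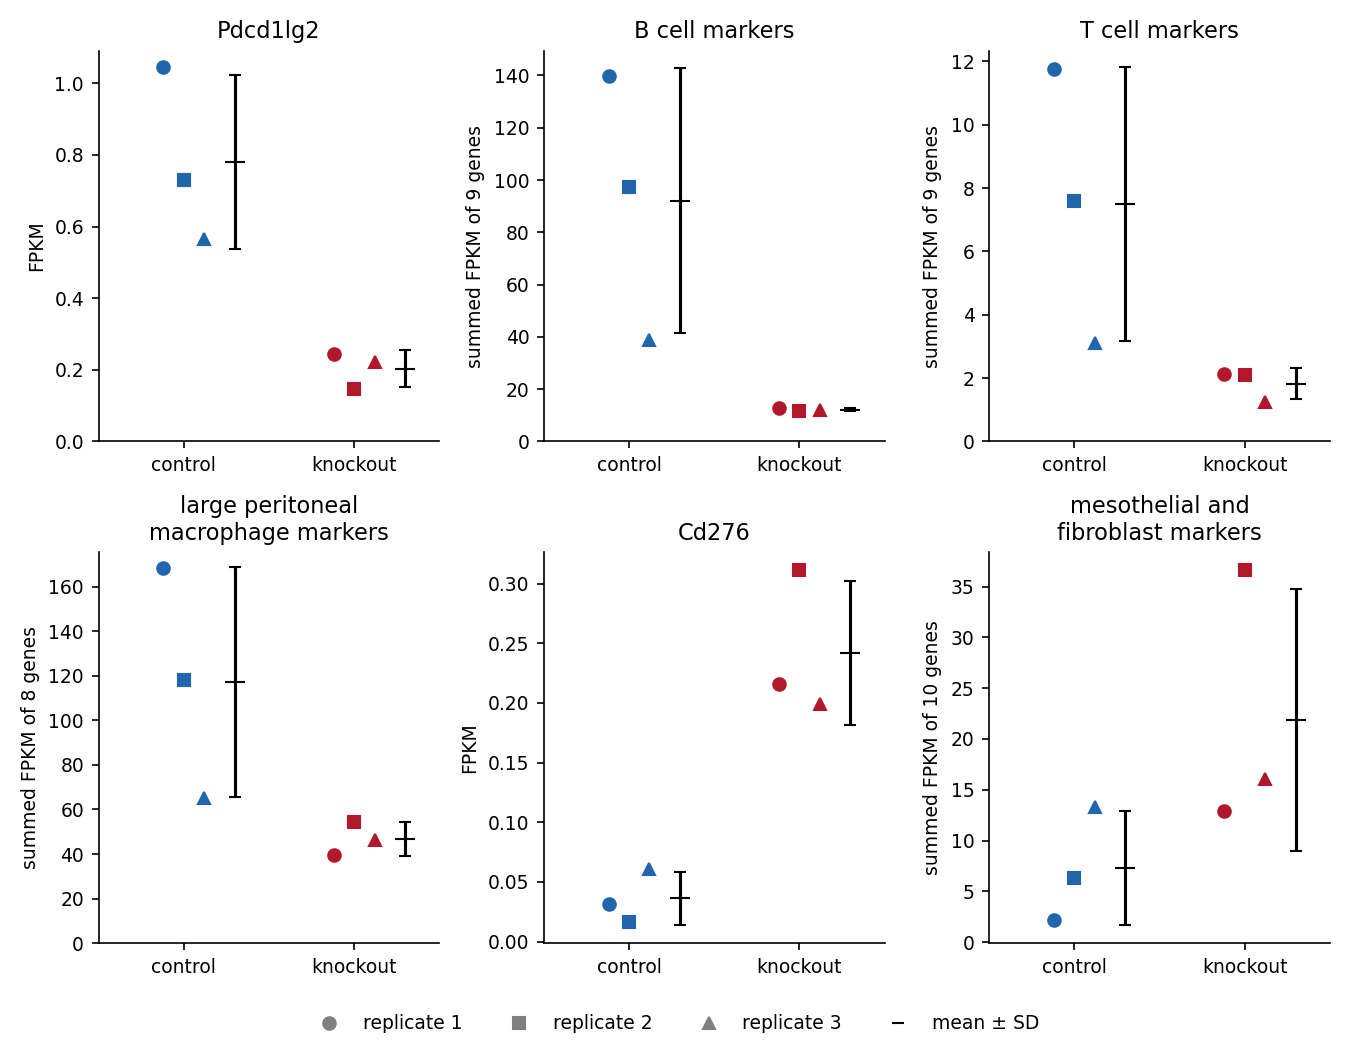
FPKM of Pdcd1lg2 and Cd276 in each library, and the summed FPKM of marker genes, with the mean ± SD. Pdcd1lg2 and the sums for B cells, T cells and large peritoneal macrophages are lower in every knockout library, and Cd276 separates the groups while the mesothelial and fibroblast sum overlaps.

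Across the family, 1 of the 4 tested members was called higher in the knockout, beside 2.57% of all tested genes, and no member was among the 4.74% of tested genes called lower. In the limma fit over all listed genes, 2 of 6 members were called higher (Cd274 and Cd276) where 0.915% of listed genes were, and Pdcd1lg2 was just outside the 1.98% called lower. In the voom fit the same 2 members were called higher and Pdcd1lg2 was called lower, beside 1.77% and 3.86% of listed genes. The groups did not overlap for 4 of 6 members. Of these, 3 were higher in the knockout (Cd274, Cd86 and Cd276), as were 9.63% of listed genes, and 1 was lower (Pdcd1lg2), as were 21.3%. The 4 tested members had a median log2 fold change of 0.48 and all 4 were above 0, against a median of -0.11 and 36.5% above 0 over all tested genes. This background depends on scaling. With median-of-ratios scaling the median over all tested genes was 0.01, and the 4 members were at 0.34 to 1.28.

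The order of the levels was Cd274, then Cd86, in every library. Cd274 was 16.1 to 21.0 times as abundant as Cd86 per length in the knockout libraries and 10.4 to 14.8 times in the control libraries. Icosl and Cd80 followed. Icosl was above Cd80 in all 3 control libraries, with ratios of 1.31, 1.09 and 1.08, while in the knockout libraries the ratio was 1.06, 0.940 and 0.963, so that the order changed among them. The difference between the genes was not tested, and their ranges of FPKM overlapped in each group. Pdcd1lg2 was above Cd276 except in knockout replicate 2. Cd274 alone made up 89.3% to 91.2% of the summed FPKM of the 6 members in the knockout libraries and 80.0% to 88.4% in the control libraries.

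The pattern over the 6 libraries was compared with that of all tested genes by the root mean square difference of centred log2 values, where a smaller number means a more similar pattern. The genes most like Cd274 were Crybg1 (0.0648), Frmd4a (0.0813) and Sgcb (0.0815). For Cd86 they were Sbno2 (0.0772), Sec24b (0.0952) and Bcl3 (0.117). For Cd80 they were Slc49a4 (0.0400), Slc31a2 (0.0550) and Btbd9 (0.0750), and for Icosl they were Zmat5 (0.0437), Gm34084 (0.0645) and Zbtb21 (0.0655). Among the tested members Cd80 and Icosl were most alike (0.143), and Cd274 and Icosl were least alike (0.609). Cd86 stood between them, at 0.347 from Cd274 and 0.391 from Cd80.

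Among other B7 and butyrophilin genes only Vsir, which encodes the inhibitory checkpoint protein VISTA, was tested. It was at 5.34, 8.23 and 5.86 FPKM in knockout replicates 1 to 3 and at 2.39, 3.25 and 4.95 in the control libraries. The groups did not overlap, and the log2 fold change was 0.74 (limma adjusted p = 0.103). Of 7 receptors and coreceptors linked to B7 family proteins, 3 were tested and 1 passed, upwards, where 2.57% of all tested genes rose and 4.74% fell. This was Tnfrsf14, which encodes HVEM, the partner of BTLA, and it rose from 18.8 ± 2.71 to 28.7 ± 1.03 FPKM (SD, n = 3 each, log2 fold change 0.59, adjusted p = 0.0471, 0.0630 with the replicate block). Btla was at 0.334 ± 0.162 FPKM in the knockout and 2.29 ± 1.23 in the control (log2 fold change -1.22, adjusted p = 0.0533, 0.0290 with the block), and it entered the test only through the control group. The receptors of the members on T cells, Cd28, Ctla4 and Pdcd1, were at 0.570 FPKM or below in every library.

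Among other costimulatory ligands, 2 of 5 tested genes rose and none fell, with a median log2 fold change of 0.78. Over all tested genes 2.57% rose and 4.74% fell, and the median was -0.11. Tnfsf9, the ligand of 4-1BB, rose from 21.8 ± 1.51 to 52.0 ± 3.13 FPKM (SD, n = 3 each, log2 fold change 1.22, limma adjusted p = 0.00651). Cd40, through which helper T cells activate macrophages, rose from 123 ± 23.2 to 248 ± 56.7 FPKM (log2 fold change 1.0, adjusted p = 0.0396). Icam1, an adhesion ligand, was at 221 ± 49.6 and 127 ± 20.0 FPKM (log2 fold change 0.78, adjusted p = 0.0564). Of 11 tested inhibitory ligands and receptors outside the family, 1 rose and none fell, with a median of 0.19. It was Cd200, at 79.8 ± 10.4 FPKM in the knockout and 36.9 ± 10.8 in the control (log2 fold change 1.13, adjusted p = 0.0337). Lilrb4a, the most abundant of this list, was at 1222 ± 124 and 1184 ± 83.0 FPKM.

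Genes that govern how long B7 proteins stay at the surface gave 1 rise among 8 tested, with a median log2 fold change of 0.01. Of all tested genes 2.57% rose and 4.74% fell, with a median of -0.11. Cd83, which protects CD86 and MHC class II molecules from MARCH1, rose from 15.9 ± 3.06 to 44.4 ± 15.8 FPKM (SD, n = 3 each, log2 fold change 1.38, limma adjusted p = 0.0341). Cmtm6, which stabilises PD-L1 at the surface, was at 41.8 ± 6.60 and 37.2 ± 6.65 FPKM (adjusted p = 0.587). Of 7 genes of antigen presentation to CD4 T cells, all 7 had a log2 fold change below 0, as did 63.5% of all tested genes. Their median was -0.63, and 1 passed, where 4.74% of all tested genes fell. This was Ciita, the regulator of MHC class II genes, at 0.487 ± 0.114 FPKM in the knockout and 1.32 ± 0.302 in the control (log2 fold change -0.63, adjusted p = 0.0426, 0.0557 with the replicate block). It entered the test only through the control group, since its knockout mean was under the filter of 1 FPKM, so its call is no support for the list. The MHC class II chaperone gene Cd74 was at 505 ± 232 and 929 ± 469 FPKM (adjusted p = 0.273). Its groups overlapped, with knockout replicate 1, at 741 FPKM, above control replicate 3, at 483 FPKM.

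Of the 14 interferon and JAK-STAT genes that lie upstream of Cd274, 2 rose and none fell, beside 2.57% and 4.74% of all tested genes, and 11 had a log2 fold change above 0, as did 36.5% of all tested genes. Their median was 0.22, against -0.11 over all tested genes. Irf1, a transcription factor known to act on Cd274, was at 187, 180 and 162 FPKM in knockout replicates 1 to 3 and at 75.3, 65.6 and 76.7 in the control libraries. The groups were far apart, with a log2 fold change of 1.27 and an SE of 0.13 (limma adjusted p = 0.00651). Stat2 rose from 37.0 ± 13.9 to 86.4 ± 11.7 FPKM (SD, n = 3 each, log2 fold change 1.26, adjusted p = 0.0383). Jak2 was at 72.9 ± 3.93 and 74.1 ± 12.6 FPKM (adjusted p = 0.975). Among 13 listed NF-kappaB and TLR4 inputs of Cd80 and Cd86, none rose and 1 fell, with a median log2 fold change of 0.12. The gene that fell was Irf4, which like Irf8 and Spi1 in this list is not an NF-kappaB subunit. Its knockout mean of 1.0 FPKM was at the filter. Nfkb1 was at 199 ± 23.7 and 182 ± 15.2 FPKM (adjusted p = 0.587), and Cd14, the coreceptor of TLR4, was at 338 ± 72.2 and 556 ± 73.2 FPKM (adjusted p = 0.0631).

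The calls of these related genes depended on single libraries as that of Cd274 did. Tnfsf9 and Irf1 kept theirs except without knockout replicate 1 or control replicate 2, with adjusted p of at most 0.0570 and 0.0551. Cd40 and Cd83 lost theirs without the same 3 libraries as Cd274. Cd200, Stat2, Irf4, Mrc1 and Ciita lost theirs without any 1 of the knockout libraries or without control replicate 2. Tnfrsf14 lost its call without any 1 of the 6 libraries.

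**Figure D5:**
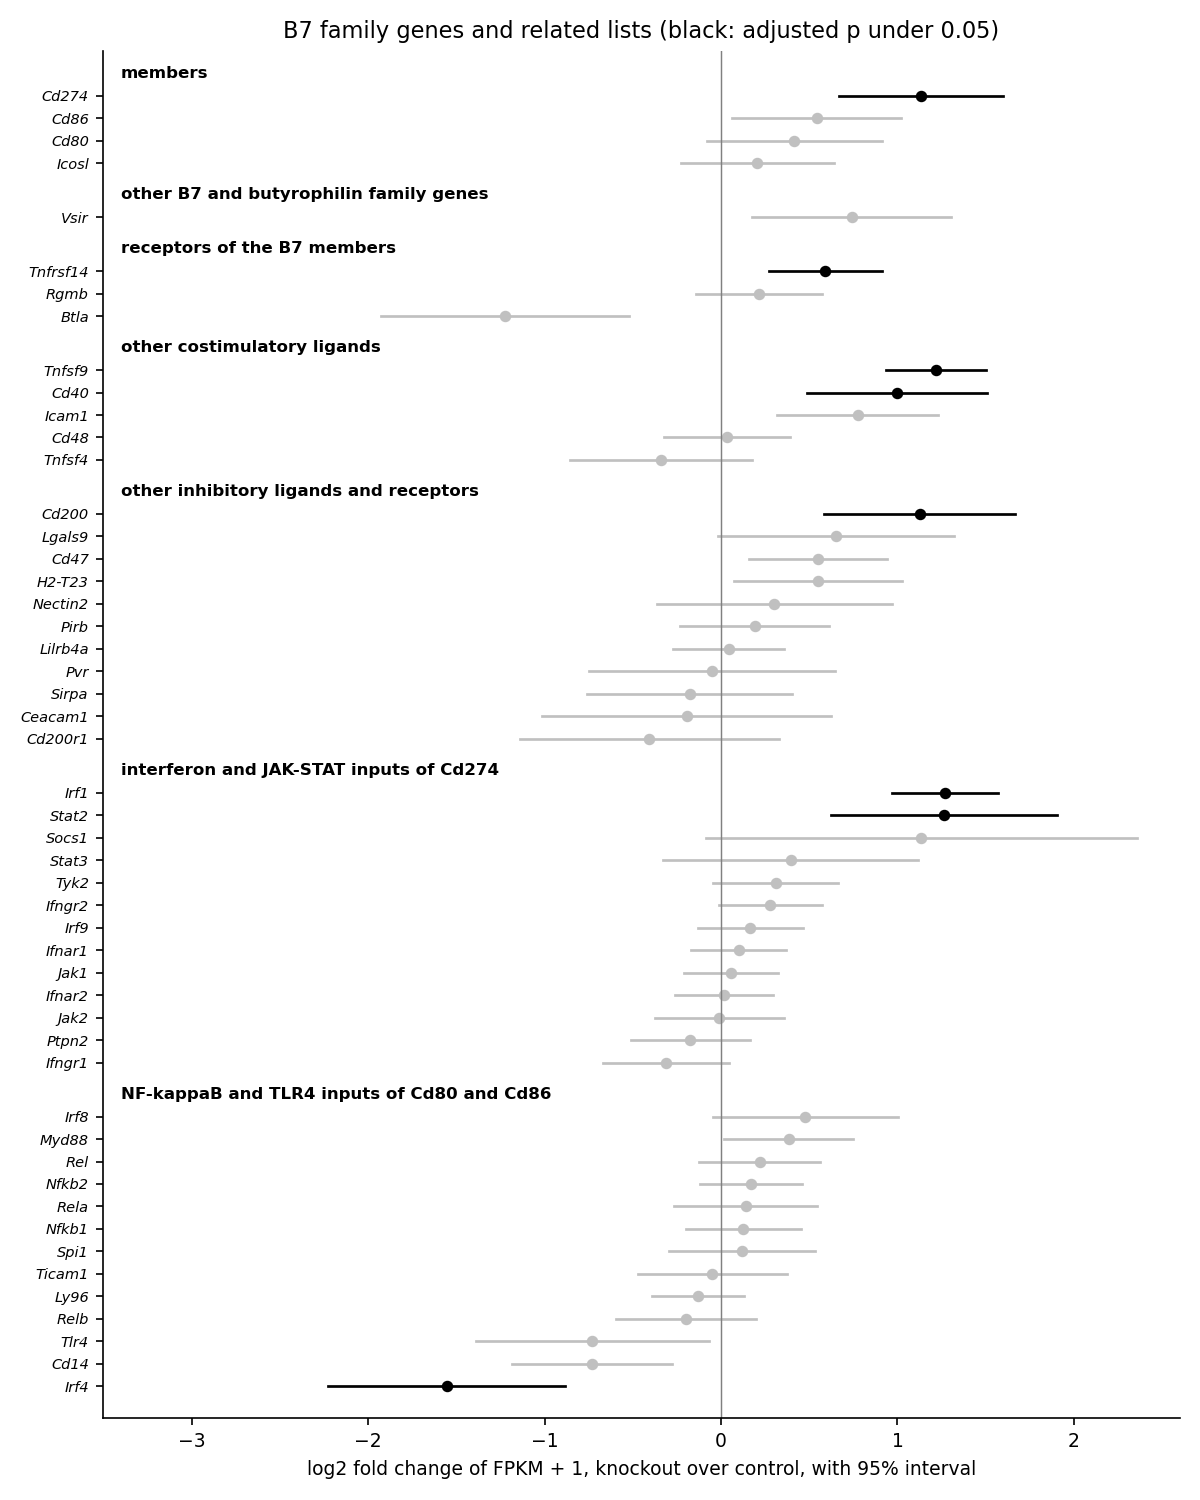
Log2 fold change of FPKM + 1 between knockout and control for tested genes of the family and of 6 related lists (1 gene is not shown), with 95% intervals, in black where the limma adjusted p is under 0.05. Cd274 is the family member in black, beside Tnfrsf14, Tnfsf9, Cd40, Cd200, Irf1 and Stat2 to the right of 0 and Irf4 to the left.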

How the data were processed

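RNA of PEMs was sequenced in 6 libraries, 3 of each group. The submitters' processing notes name the build mm9; the aligner, the counting and the annotation are not given in the sources used here. The FPKM values per library were deposited by the authors. The signal columns the authors deposited are group means of reads divided by size factors, and they were used only to recover whole reads from FPKM (100% of values whole, within 0.05, in each library). The table also holds the authors' fold changes, p-values, q-values and direction calls, which were not used.

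The members and gene lists were chosen with earlier results of these data known. The main fit used limma 3.58.1 (lmFit, then eBayes with trend; R 4.3.3) on log2(FPKM + 1), for 9030 genes averaging 1 FPKM or more in either group, two-sided, with Benjamini-Hochberg adjustment and a threshold of 0.05; this scale understates changes of low genes. Alternatives were no filter, at least 10 reads in every library, a pseudocount of 0.1, median-of-ratios scaling, voom on recovered reads, a replicate block and each library left out in turn. All 6 members were named, with list genes past the threshold and up to 3 others per list by mean FPKM; the choice of some further genes followed sight of their values. Deviations from the group means of libraries with the same number correlated at 0.109, 0.109 and 0.304, all above 0.1. The numbers were therefore taken as pairs in the replicate block, whereas the main fit and the exact permutation tests did not use pairs. The pairing rests on that check alone, and libraries with different numbers correlated at up to 0.291 (knockout 2 with control 1), more than 2 of the 3 pairs. Promoters are from RefSeq on GRCm38.p6, which was used for sequence and gene order only, and Cd86 had no entry. The values of 1 list gene are not reported here.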

Additional observations from a re-analysis of the deposited data

How the results depend on the processing

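Without control replicate 2, 8 genes passed the threshold, and without control replicate 3, 1278 did, against 660 with all libraries (30 without knockout replicate 1 and 63 without knockout replicate 2). The number of members past the threshold was 1, and it was 2 without a filter, 2 with at least 10 reads in every library, 3 by voom without a filter and 0 to 2 when 1 library was left out. With the replicate block and no filter, limma called 0 of 15415 genes (3787 had an unadjusted p under 0.05) and 0 members, and the log2 fold change of Cd274 was 1.13 (adjusted p = 0.0667). With the block on the filtered genes 855 genes were called, Cd274 among them (adjusted p = 0.0161), and the block changed no call of another tested member.

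Leaving out 1 library gave log2 fold changes of 0.98 to 1.28 for Cd274, 0.37 to 0.76 for Cd86, 0.23 to 0.62 for Cd80 and 0.10 to 0.37 for Icosl. Pdcd1lg2 passed with at least 10 reads in every library (-0.56) and by voom without a filter (-1.92), and Cd276 without a filter (0.26) and by voom (2.76). The difference in the log2 ratio of Cd80 to Cd86 ranged from -0.42 to 0.13 when 1 library was left out, turning positive without knockout replicate 1 (0.057), knockout replicate 2 (0.028) or control replicate 3 (0.13). That of Cd274 to Pdcd1lg2 ranged from 2.78 to 3.28 and was 1.69 with 1 FPKM added. The causes were not tested. Median-of-ratios scaling called 343 genes higher and 326 lower, against 232 and 428. Depth limits Pdcd1lg2 and Cd276, which rested on 2 to 141 reads per library.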
